A study of Homo sapiens with 27 samples.

Results

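The 34 nonfibrillar collagen genes were followed through 3 lines of U2OS cells and 3 stages of culture. Members were chosen by name, as every symbol made of COL, a number, A and a number, after the 10 genes of the fibrillar class (types I, II, III, V, XI and XXVII) had been set aside. This left 34 of 44 collagen symbols and of 55882 symbols in all. COL24A1 is built like a fibrillar collagen but the name rule kept it. U2OS is an established human osteosarcoma line, and each of the 3 lines was a stable lentiviral line selected with puromycin: the control, which the labels title WT and describe as holding an empty pLKO.1 vector, MMP2sh1 and MMP2sh2, which carry 2 different short hairpin RNAs against MMP2. RNA was taken from subconfluent cells (day −2), confluent cells (day 0) and overconfluent cells (day +2), with 3 libraries in each of the 9 groups and 27 in all. Each hairpin was present in 1 line, so hairpin and line cannot be told apart, and by the study's methods the vector backbone and its selection were shared by all 9 groups.

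Collagens are secreted or membrane-bound proteins whose chains wind around each other into a rope-like helix. The fibrillar types form the thick fibres of bone, skin and tendon, and the nonfibrillar types do the remaining structural work: type IV chains form the sheet-like network of basement membranes, type VI chains form beaded filaments around cells, type VIII and type X chains form hexagonal lattices, the FACIT group (fibril-associated collagens with interrupted triple helices) sits on the surface of fibres, the transmembrane group is anchored in the plasma membrane, and the multiplexins carry sugar chains in basement membranes. MMP-2, also called gelatinase A, is a secreted metalloprotease that was first described as a type IV collagenase. A bone tumour line would be known mainly for its fibrillar collagens, so the question here was which of the other collagens U2OS cells transcribe, how these change as a culture fills the dish, and where the lines with less MMP2 RNA differ from control.

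The 27 libraries held between 33580129 and 59374327 reads on genes (median 40075178), and the members together took 0.224% to 0.536% of them. The knockdown was visible in every library. At day −2 MMP2 was at 222, 226.2 and 248 CPM (read counts per 1000000 reads on genes, scaled across libraries) in control, at 33.97, 39.5 and 46.8 in MMP2sh1 and at 136, 139.8 and 155 in MMP2sh2, and the log2 fold changes at days −2, 0 and +2 were −2.53, −2.47 and −2.34 for MMP2sh1 and −0.70, −1.06 and −0.82 for MMP2sh2. Of the osteoblast lineage markers RUNX2 lay between 30.0 and 63.7 CPM and SPARC between 1182 and 2074, whereas IBSP was at 0 in all 27 libraries and BGLAP and SP7 did not pass 0.570 and 0.168 CPM. SPP1 was at 6.33 to 26.2 CPM and ALPL at 0.397 to 6.98. Keratins of simple epithelia were present in this bone-derived line, KRT8 at 225.8 to 569 CPM and KRT18 at 107 to 188, with EPCAM at 3.12 to 6.73. The other epithelial markers were CDH1 at 0 to 2.54 CPM, KRT5 at 0.196 to 1.12 and KRT14 at 0.811 to 12.8. The summed leukocyte markers stayed at or below 1.46 CPM, and those of endothelium and of smooth muscle at or below 5.16 and 4.21. Library 1 of MMP2sh1 at day −2 stood apart from its replicates. Measured as chi-square over degrees of freedom, its counts differed from those of the other 2 libraries of the group by 19.3 and 24.6, where no other pair of replicates passed 13.1, and its member share of 0.224% lay below their 0.273% and 0.279%. The counts of members called that rest on this library are given with and without it. Replicates were described as independent. No 2 libraries of a group were alike within sampling noise (at least 4.74 per degree of freedom over 27 pairs). That measure is set against the sampling of reads alone, so it does not tell whether the cultures were independent. In such bulk libraries a difference in RNA per cell cannot be told apart from a difference in the kind of cell present.

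Several of these genes lie in pairs. Stretches between or upstream of them are shown first, because the chains of 1 trimer are encoded either back to back or far apart. All coordinates are those of hg19 (GRCh37), which the counts were made on, with start sites from GENCODE. COL4A1 and COL4A2 on chromosome 13 start 127 bases apart on opposite strands, COL4A3 and COL4A4 on chromosome 2 start 419 bases apart on opposite strands, and COL4A5 and COL4A6 on chromosome X 1416 bases apart. COL6A1 and COL6A2 lie 116342 bases apart on the same strand of chromosome 21, and COL6A3 lies on chromosome 2. Capitals mark the GC box letters GGGCGG or their reverse complement CCGCCC. The COL4A1-COL4A2 stretch runs from the canonical COL4A1 start to the first COL4A2 exon of any transcript. The COL4A4-COL4A3 stretch lies between the gene models, so neither holds every base between the canonical starts. None of the stretches overlaps an annotated exon.
COL4A1-COL4A2, chr13:110959505-110959604, plus strand: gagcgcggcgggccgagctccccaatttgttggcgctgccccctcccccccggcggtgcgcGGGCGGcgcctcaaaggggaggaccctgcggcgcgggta
COL4A4-COL4A3, chr2:228029170-228029339, plus strand: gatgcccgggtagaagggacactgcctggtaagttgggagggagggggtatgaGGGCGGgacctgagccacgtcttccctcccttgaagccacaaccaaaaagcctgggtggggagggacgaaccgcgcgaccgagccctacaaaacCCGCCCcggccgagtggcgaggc
COL6A2, 200 bases upstream, chr21:47517826-47518025, plus strand: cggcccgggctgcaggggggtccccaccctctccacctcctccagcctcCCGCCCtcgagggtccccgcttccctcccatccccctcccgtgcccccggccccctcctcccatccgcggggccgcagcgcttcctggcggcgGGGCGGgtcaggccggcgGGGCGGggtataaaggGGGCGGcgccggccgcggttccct
COL6A3, 200 bases upstream, chr2:238322972-238323171, minus strand: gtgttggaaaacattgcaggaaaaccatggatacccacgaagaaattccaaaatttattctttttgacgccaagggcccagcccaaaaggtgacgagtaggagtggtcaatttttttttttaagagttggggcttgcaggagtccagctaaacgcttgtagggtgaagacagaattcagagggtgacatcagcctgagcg

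The stretches upstream of the gene models of COL6A2 and COL6A3 were unlike in composition and in position. That of COL6A2 ends next to its canonical start at base 47518026. The COL6A3 model reaches base 238322971 while its canonical start is at 238322807, so the bases next to that start were not covered. The COL6A2 window held 4 GC boxes in 200 bases with a GC content of 80.0%, and the COL6A3 window held none with 45.5%. The TATAAA letters (either strand) occurred once in the COL6A2 window and not in that of COL6A3. Among 35116 RefSeq promoters (GRCh38.p14), 40.1% held a GC box and 8.59% a TATAAA in a window of 200 bases. The printed stretch between COL4A1 and COL4A2 had 1 GC box (31.3% of promoters in 100 bases) and 1 CCAAT, on either strand (18.1%). That between COL4A4 and COL4A3 had 2 GC boxes (38.3% in 170 bases). These matches describe letters in the reference and were not related to binding here.

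The levels of the 34 members spanned 5 orders on a scale of CPM per kb of canonical transcript, as the plot of levels by gene shows. COL6A2 was highest with a mean of 171 CPM per kb over the 27 libraries, followed by COL4A2 with 117, COL6A1 with 110, COL6A3 with 54.6, COL4A1 with 50.6 and COL12A1 with 26.8. These 6 genes took 92.4% of the member reads, so the nonfibrillar collagen RNA of U2OS was mainly that of the ubiquitous type IV and type VI chains and of COL12A1. COL8A1, COL9A2, COL13A1, COL22A1, COL16A1 and COL18A1 lay between 4.17 and 11.2 CPM per kb. A further 19 members were under 1 CPM per kb. COL6A5 and COL9A1 did not reach 10 reads in any library, with 6 and 7 reads in all 27 together, and COL6A6, COL10A1, COL19A1, COL23A1 and COL25A1 also had too few reads for any comparison. COL10A1, the marker collagen of hypertrophic cartilage, had 0 reads in 8 libraries and at most 33. These 7 were never tested, 23 members were tested in all 16 comparisons, and COL4A3, COL9A3, COL21A1 and COL28A1 were tested in some of them.

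**Figure D1:**
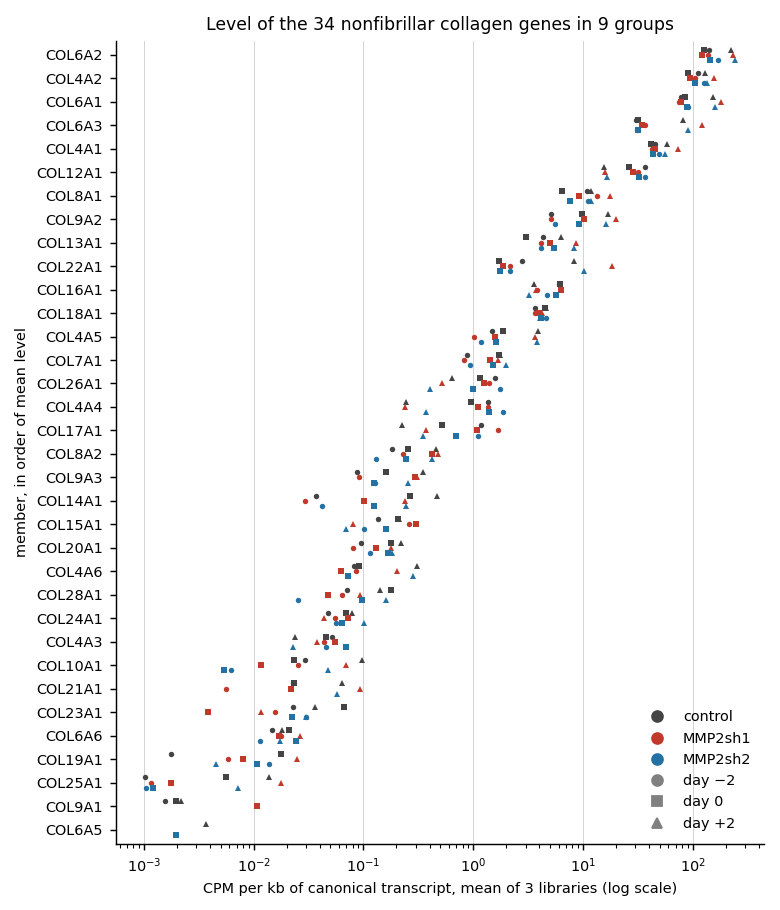
Mean level of each of the 34 members in the 9 groups, in CPM per kb of canonical transcript on a log axis, with line by colour and day by symbol; group means of 0 are not drawn. COL6A2 is at the top with 171 CPM per kb over all libraries, and 19 members lie under 1.

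Between subconfluent and overconfluent culture, most of the tested members changed. In control, 21 of 26 tested members passed an adjusted p of 0.05 from edgeR (the share over all genes tested was 56.8%), with 16 higher at day +2 (28.1% of all genes) and 5 lower (28.6%). MMP2sh1 had 21 of 26 called (all genes 54.9%) and MMP2sh2 18 of 26 (all genes 54.7%). The median log2 fold change of the tested members was 0.69 in control, 0.79 in MMP2sh1 and 0.75 in MMP2sh2, beside 0.03, 0.04 and 0.05 over all genes. The members' share of all reads rose from between 0.258% and 0.278% at day −2 to between 0.399% and 0.439% at day +2 in control. The corresponding shares were 0.224% to 0.279% and 0.463% to 0.536% in MMP2sh1, and 0.283% to 0.299% and 0.394% to 0.466% in MMP2sh2. Of the 26 members tested in all 3 lines, 12 were called higher (19.4% of all genes so tested) and 4 lower (21.6%) in each line. Without the MMP2sh1 library that stood apart, 20 in place of 21 of the members were called in MMP2sh1. The calls of COL20A1 and COL4A6 were lost, and COL21A1, not tested with all libraries, was called. From day −2 to day 0 the control had 14 of 26 called (all genes 35.5%), 6 higher and 8 lower, and from day 0 to day +2 18 of 26 (all genes 41.4%), 13 higher and 5 lower. Over all genes 3173 were higher and 3691 lower of 19317 in the first step, and 4123 and 3893 of 19362 in the second.

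**Figure D2:**
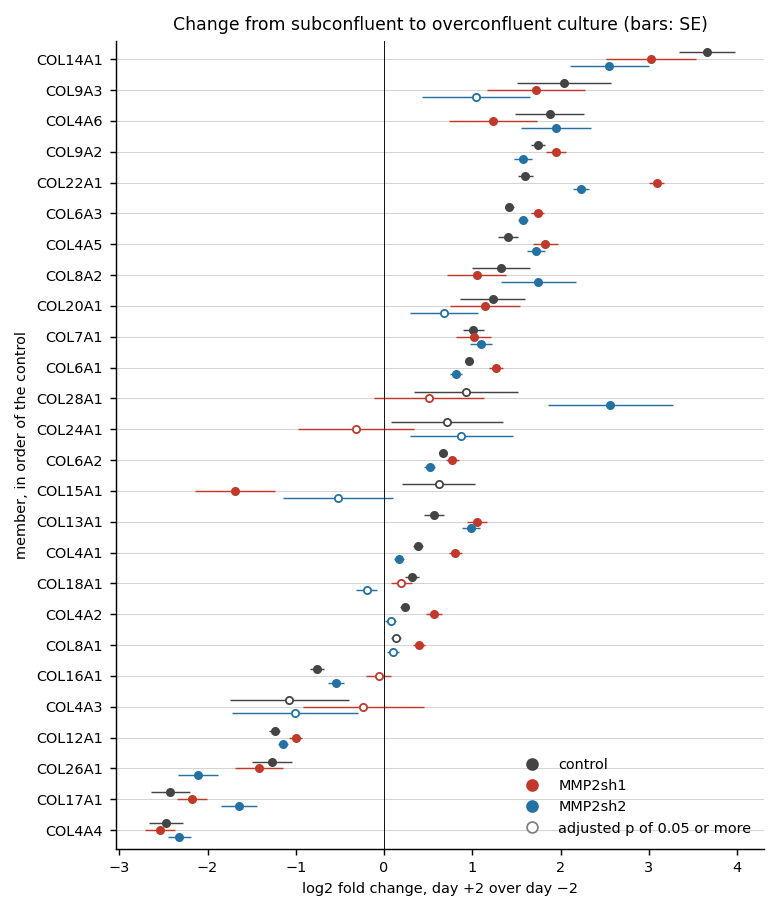
Log2 fold change of day +2 over day −2 for the 26 members tested in control, in order of the control value, with bars of 1 SE and open symbols for an adjusted p of 0.05 or more. COL14A1 stands at the top with 3.66 in control, COL4A4 at the bottom with −2.47, and COL22A1 has the smallest adjusted p of all members in both interactions (1.60 in control, 3.09 in MMP2sh1 and 2.23 in MMP2sh2).

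Relative to control, each MMP2 line differed in a minority of the tested members. Before confluence the MMP2sh1 line had 7 of 26 tested members called, where the share over all genes was 11.6%. At confluence it had 8 of 26 (all genes 16.8%), and 2 days later 10 of 27 (all genes 14.8%). For MMP2sh2 the same 3 stages gave 7 of 24 (all genes 11.0%), 7 of 26 (all genes 12.9%) and 5 of 26 (all genes 6.32%). Higher and lower calls were 3 and 4, 5 and 3, and 8 and 2 in MMP2sh1, and 5 and 2, 6 and 1, and 3 and 2 in MMP2sh2. Over all genes they were 1024 and 1160, 1613 and 1677, and 1482 and 1372 in MMP2sh1. In MMP2sh2 they were 887 and 1193, 1348 and 1108, and 559 and 663, with 18845 to 19536 genes tested in the 6 comparisons. The medians over the tested members lay near 0 throughout, at −0.07, 0.10 and 0.04 in MMP2sh1 and 0.06, −0.09 and −0.01 in MMP2sh2 (all genes −0.00323 to 0.00255). Of the 27 members tested in 1 or more of these 6 comparisons 19 were called in at least 1, where the share over all genes was 36.2%, and 13 in at least 2 (all genes 18.3%). The comparisons of both hairpins use the same control libraries, so their values are set side by side and not counted as separate support. Of 44 such calls 17 were kept in every alternative setting, and where leaving out a library ended a call this is given with the gene. Without library 1 of MMP2sh1, 4 of the 7 calls at day −2 were left, those of COL16A1 (−0.49 on the log2 scale, edgeR adjusted p = 0.00030), COL8A1 (0.35, adjusted p = 0.00047), COL6A3 (0.36, adjusted p = 1.7e-05) and COL17A1 (0.51, adjusted p = 0.021). The calls of COL12A1 (−0.16, adjusted p = 0.051), COL22A1 (−0.35, adjusted p = 0.053) and COL4A5 (−0.33, adjusted p = 0.17) were lost. Beside these counts, the summed osteoblast markers, nearly all SPARC, were at 1684 to 1719 CPM in control and 2162 to 2193 in MMP2sh1 at day +2, and the summed epithelial markers, nearly all KRT8 and KRT18, at 478 to 511 and 672 to 731 at day −2, when MMP2sh2 had 581 to 639. The part of either in the member results was not tested.

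**Figure D3:**
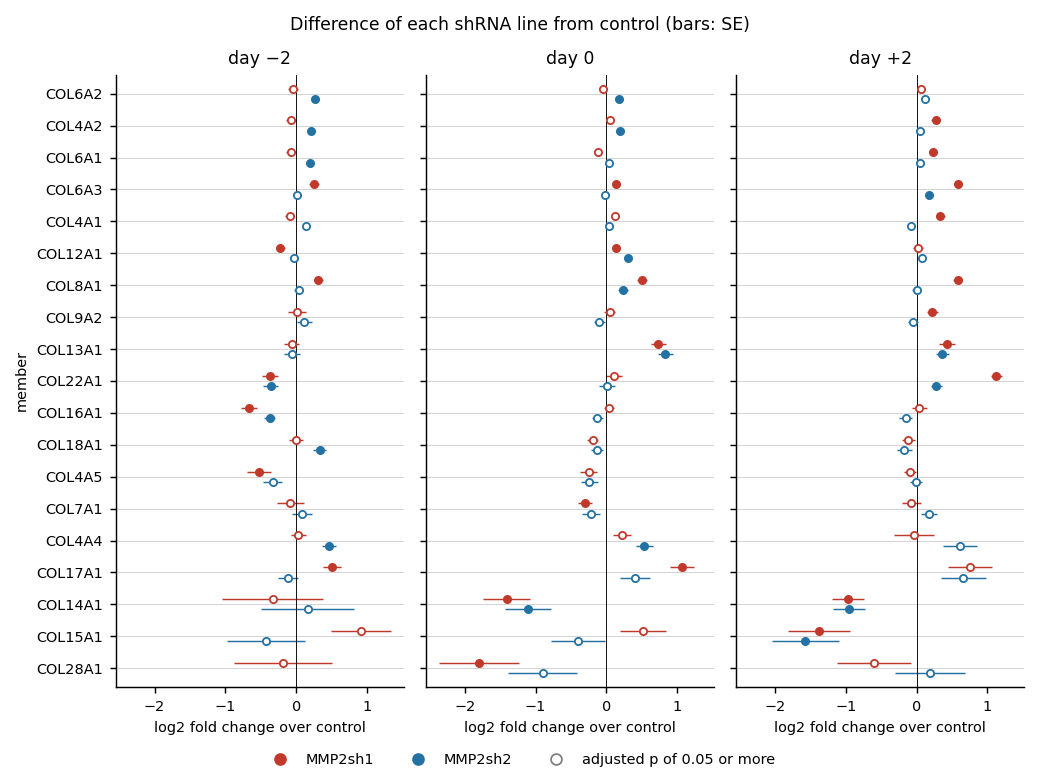
Log2 fold change of MMP2sh1 and MMP2sh2 over control at each day for the 19 members called in at least 1 of the 6 comparisons, ordered by level, with bars of 1 SE and open symbols for an adjusted p of 0.05 or more. Most values lie close to 0, COL22A1 in MMP2sh1 at day +2 is the furthest above 0 (1.13), and COL28A1 in MMP2sh1 at day 0 is the furthest below (−1.80).

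COL22A1 was the member whose difference from control had the smallest adjusted p. It encodes a FACIT collagen of tissue junctions, best known from the junction of muscle and tendon. At day +2 it was at 59.9, 51.6 and 48.9 CPM in the 3 control libraries, at 129, 116 and 106 in MMP2sh1 and at 67.9, 68.3 and 58.4 in MMP2sh2. All MMP2sh1 libraries lay far above all control libraries, whereas the MMP2sh2 libraries overlapped with control. The log2 fold change was 1.13 ± 0.074 (SE) in MMP2sh1 (edgeR adjusted p = 3.7e-12), a call that held in every alternative. In MMP2sh2 it was 0.28 ± 0.072 (adjusted p = 0.011), and this call was lost on leaving out control library 2 or 3 or MMP2sh2 library 1 or 2 and in the fit of all 27 libraries (adjusted p up to 0.15). Before confluence the order was the other way round, with 15.4, 19.9 and 18.1 CPM in control, 13.2, 14.9 and 13.0 in MMP2sh1 and 12.7, 13.8 and 15.2 in MMP2sh2. Every MMP2 library was below every control library at that stage, by log2 fold changes of −0.37 in MMP2sh1 and −0.36 in MMP2sh2. The MMP2sh1 call at day −2 was lost on leaving out control library 2 or 3 or MMP2sh1 library 1 or 3 (adjusted p up to 0.18), and that of MMP2sh2 was lost on leaving out control library 2 or 3 or MMP2sh2 library 1 or 2 (adjusted p up to 0.19). At day 0 all 3 lines were low, at 11.0 ± 0.828, 11.98 ± 1.74 and 11.2 ± 1.54 CPM (SD, n = 3 each).

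**Figure D4:**
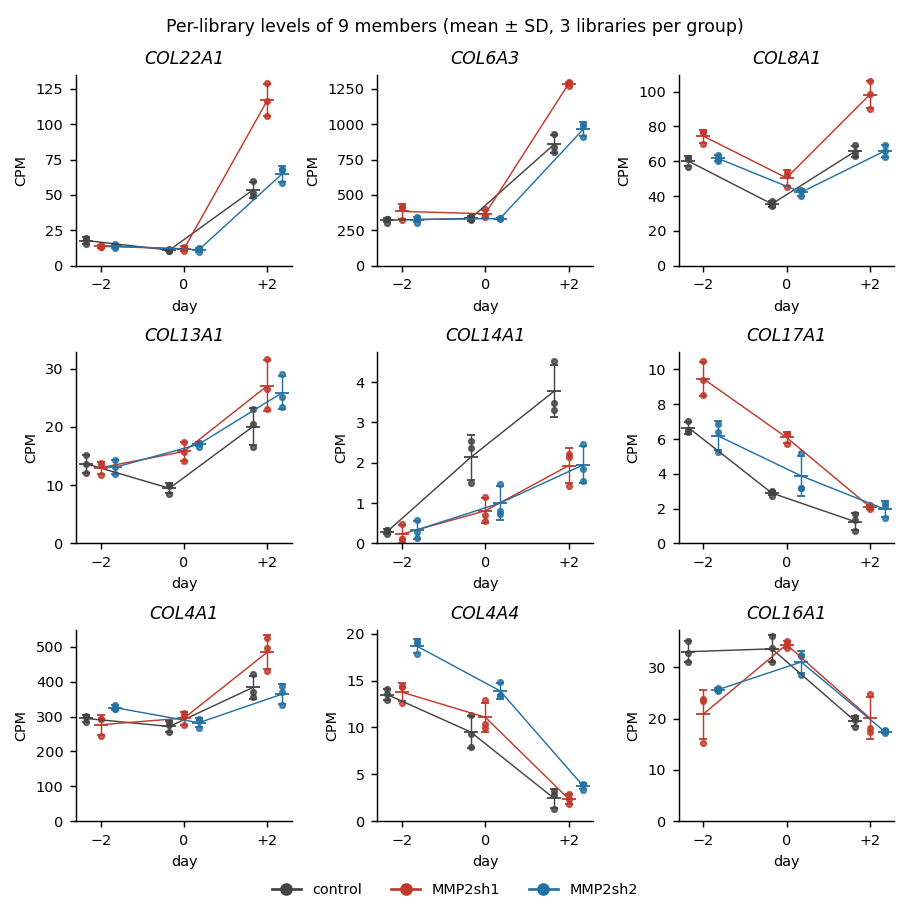
CPM in each library for 9 members by day and line, with bars of mean ± SD over 3 libraries. COL22A1, COL6A3 and COL8A1 in MMP2sh1 at day +2 lie above control without overlap, and COL14A1 lies below control in both MMP2 lines at day +2.

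The increase of COL22A1 with culture was larger in both MMP2 lines than in control. Its log2 fold change from day −2 to day +2 was 1.60 ± 0.087 in control, 3.09 ± 0.087 in MMP2sh1 and 2.23 ± 0.087 in MMP2sh2. The difference between these changes, tested as an interaction term, was 1.498 ± 0.13 for MMP2sh1 (edgeR adjusted p = 3e-09) and 0.63 ± 0.13 for MMP2sh2 (adjusted p = 0.0019). Both calls held in every alternative. Over all members 6 of 27 were called in the MMP2sh1 interaction (all genes 7.40%), or 4 without MMP2sh1 library 1 of day −2, and 2 of 27 in that of MMP2sh2 (all genes 4.98%). The control itself went through a low point, since COL22A1 fell by 0.68 on the log2 scale from day −2 to day 0 and rose by 2.30 from day 0 to day +2.

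Within the basement membrane network, COL4A1 and COL4A2 encode the chains found in nearly every basement membrane. COL4A2 was at 671, 754 and 719 CPM at day −2 and at 911, 804 and 793 at day +2 in control, and the days did not overlap. COL4A1 was at 284, 299 and 300.2 and at 421, 372 and 357 CPM, again without overlap. The log2 fold changes were 0.39 ± 0.053 for COL4A1 and 0.23 ± 0.053 for COL4A2 (edgeR adjusted p = 5.2e-07 and 0.0005). Per kb, COL4A2 exceeded COL4A1 in all 27 libraries, by a ratio of 1.99 to 2.7. The ratio moved little, from 2.46 ± 0.0860 at day −2 to 2.21 ± 0.0318 at day +2 in control (SD, n = 3).

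Both chains of this pair were called higher than control in MMP2sh1 at day +2. COL4A1 was at 526, 498 and 432 CPM there, all 3 libraries above the control ones, with a log2 fold change of 0.34 ± 0.063 (edgeR adjusted p = 0.00029) that held in every alternative. COL4A2 was at 1139, 1038 and 847 CPM, which overlapped with control, and the call on its 0.27 ± 0.069 (adjusted p = 0.0075) was lost on leaving out control library 2 or 3 and with DESeq2 (adjusted p up to 0.2). In MMP2sh2 at day +2 the values were 370.4, 389 and 334 and 907, 932 and 761 CPM and neither was called (−0.07 and 0.05). COL4A2 was instead called in MMP2sh2 at day −2, at 768, 821 and 888 CPM (log2 fold change 0.20 ± 0.056), a call lost on leaving out control library 1 or MMP2sh2 library 2 or 3 and in the fit of all 27 libraries (adjusted p up to 0.15). It was also called there at day 0 (0.20 ± 0.044), a call lost in the fit of all 27 libraries (adjusted p up to 0.12). COL4A1 differed from control by 0.14 and 0.04 at these days and was not called.

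The other type IV chains are those of specialised membranes, COL4A3, COL4A4 and COL4A5 in the filtering membranes of the kidney and COL4A5 with COL4A6 around smooth muscle. COL4A4 fell with culture, from 13.5, 12.9 and 14.1 CPM at day −2 to 2.81, 3.24 and 1.28 at day +2 in control (log2 fold change −2.47 ± 0.19, edgeR adjusted p = 1.7e-11). Its neighbour COL4A3 stayed below 1 CPM in every library, at 0.294, 0.710 and 0.234 CPM at day −2 and 0.113, 0.368 and 0.0967 at day +2, with overlapping libraries and no call (−1.07 ± 0.68). COL4A4 exceeded COL4A3 per kb in every library, by 3.53 to 128.5 times, with COL4A3 counts of 4 to 32. The ratio was lower after culture. Its means in control, MMP2sh1 and MMP2sh2 were 33.4, 40.4 and 63.55 at day −2 and 12.56, 8.31 and 17.9 at day +2. A share of 6.82% of the exon bases of COL4A3 overlap with a divergent transcript, MFF-DT. In MMP2sh2 COL4A4 was higher than control at day −2, at 19.2, 19.1 and 17.8 CPM against the control values above, and at day 0, at 13.4, 13.5 and 14.9 against 7.96, 9.28 and 11.3. The groups did not overlap at either day, and the log2 fold changes of 0.47 ± 0.096 and 0.54 ± 0.12 (adjusted p = 0.0025 and 0.0016) held in every alternative. In MMP2sh1 they were 0.03 and 0.22 and were not called.

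COL4A5 and COL4A6 rose together with culture in all 3 lines. COL4A5 was at 7.89, 11.0 and 10.1 CPM at day −2 and 28.0, 25.6 and 22.6 at day +2 in control (1.41 ± 0.11 on the log2 scale). COL4A6 was at 0.882, 0.284 and 0.468 and 1.90, 2.72 and 1.55 CPM (1.88 ± 0.39), without overlap between days for either gene. Their log2 fold changes were 1.83 and 1.24 in MMP2sh1 and 1.72 and 1.94 in MMP2sh2. The COL4A6 call in MMP2sh1 was lost on leaving out MMP2sh1 day −2 library 1 or MMP2sh1 day +2 library 1 or 3 and with DESeq2 (adjusted p up to 0.14). COL4A5 exceeded COL4A6 by 8.54 to 72.3 times per kb, the width of that range going with COL4A6 counts of 4 to 111. COL4A5 was lower in MMP2sh1 than in control at day −2, at 4.65, 7.37 and 8.004 CPM with overlapping libraries (−0.52 ± 0.17), a call lost on leaving out control library 2 or 3 or MMP2sh1 library 1 or 2 and with DESeq2 (adjusted p up to 0.2).

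Of the beaded filament genes, the 3 main type VI chains rose with culture, COL6A3 most. COL6A1 was at 317, 343 and 335 CPM at day −2 and 658, 627 and 652 at day +2 in control. COL6A2 was at 461, 496 and 503 and 778, 755 and 777 CPM. COL6A3, the longest chain, whose terminal fragment is known as endotrophin, was at 305, 329 and 331 and 928, 838 and 805 CPM. All 3 were without overlap between days, and the log2 fold changes were 0.97 ± 0.046, 0.67 ± 0.046 and 1.42 ± 0.052 (edgeR adjusted p = 6.5e-16, 1.4e-12 and 2.7e-18). Nearly all of the control change in the type VI chains fell after confluence, with 0.13, −0.16 and 0.06 from day −2 to day 0 and 0.86, 0.85 and 1.38 from day 0 to day +2. The first COL6A1 value was called but lost on leaving out control day −2 library 1 or control day 0 library 1 or 3 and in the fit of all 27 libraries (adjusted p up to 0.21), and the first COL6A2 value was called but lost on leaving out control day 0 library 1 and in the fit of all 27 libraries (adjusted p up to 0.062). COL6A5 and COL6A6, which encode alternative partner chains and lie 171506 bases apart on chromosome 3, were at or near 0 in all groups, COL6A6 with at most 17 reads in a library.

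COL6A3 was higher in MMP2sh1 than in control at day +2. The 3 MMP2sh1 libraries were at 1296, 1293 and 1270.0 CPM and those of MMP2sh2 at 999, 989 and 907. All MMP2sh1 libraries lay above all control libraries, and the lowest MMP2sh2 library lay within the control range, at 907 CPM. The log2 fold change was 0.58 ± 0.051 in MMP2sh1 (edgeR adjusted p = 9.1e-10) and held in every alternative. In MMP2sh2 it was 0.17 ± 0.050 (adjusted p = 0.03), a call lost on leaving out control library 2 or 3 or MMP2sh2 library 1 or 2 and in the fit of all 27 libraries (adjusted p up to 0.28). At day −2 and day 0 the MMP2sh1 values of 325, 407 and 418 and 343, 360.5 and 398 CPM overlapped with control, with log2 fold changes of 0.26 and 0.13. The first of these calls was lost on leaving out control library 1 or MMP2sh1 library 2 or 3 and with DESeq2 (adjusted p up to 0.13), and the second lost on leaving out control library 1 or 3 or MMP2sh1 library 2 or 3 and in the fit of all 27 libraries (adjusted p up to 0.29).

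The other 2 type VI chains differed less from control. COL6A1 in MMP2sh1 at day +2 was at 820.3, 771 and 684 CPM, above every control library (0.23 ± 0.055, edgeR adjusted p = 0.0035), and the call held in every alternative. COL6A2 was not called in MMP2sh1 at any day (−0.05, −0.05 and 0.06). In MMP2sh2 both were above control at day −2, COL6A1 at 360.4, 366 and 416 CPM and COL6A2 at 563, 566 and 634, without overlap. The COL6A2 log2 fold change of 0.27 ± 0.055 (adjusted p = 0.0025) held in every alternative, whereas the COL6A1 call (0.20 ± 0.056) was lost on leaving out control library 1 or 3 or MMP2sh2 library 3 and in the fit of all 27 libraries (adjusted p up to 0.16). COL6A2 was called in MMP2sh2 at day 0 as well (0.17 ± 0.040), a call lost in the fit of all 27 libraries (adjusted p up to 0.062).

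The ratios between the type VI chains are given by stage and line. Per kb, the ratio of COL6A3 to COL6A1 in control was 0.387 ± 0.00694 at day −2 and 0.530 ± 0.0357 at day +2 (SD, n = 3). In MMP2sh1 it was 0.486 ± 0.00906 and 0.680 ± 0.0561, and in MMP2sh2 0.343 ± 0.0273 and 0.582 ± 0.0438. At each of days −2 and +2 the 3 MMP2sh1 libraries lay above the 3 control libraries, while those of MMP2sh2 lay below control at day −2 and overlapped with it at day +2. The ratio of COL6A2 to COL6A1 was 1.79 ± 0.0389 at day −2 and 1.46 ± 0.0125 at day +2 in control, and 1.82 ± 0.0348 and 1.30 ± 0.0407 in MMP2sh1. These ratios are given as values and were not tested, and no test related the letters printed above to the levels.

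**Figure D5:**
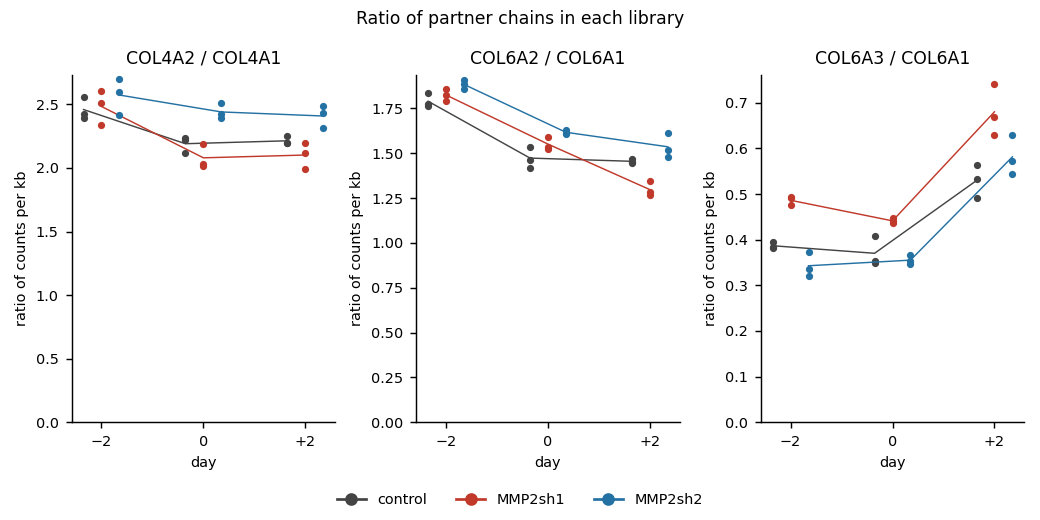
Ratio of partner chains, in counts per kb of canonical transcript, in each of the 27 libraries by day and line, with lines through the group means. COL4A2 stays at 1.99 to 2.7 times COL4A1, COL6A2 falls from 1.79 ± 0.0389 to 1.46 ± 0.0125 times COL6A1 in control, and COL6A3 rises to 0.680 ± 0.0561 times COL6A1 in MMP2sh1 at day +2.

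Of the other FACIT genes, COL14A1 showed the widest change with culture and was lower than control in both MMP2 lines at days 0 and +2. It encodes a collagen of tendon and skin that binds the surface of type I fibres. It was near absent in subconfluent cells, at 0.329, 0.237 and 0.322 CPM (10 to 19 reads in a control library), and reached 3.32, 4.51 and 3.48 CPM at day +2 in control (3.66 ± 0.31 on the log2 scale, edgeR adjusted p = 1.3e-10). At day +2 it was at 2.23, 1.43 and 2.13 CPM in MMP2sh1 and at 1.84, 1.55 and 2.46 in MMP2sh2. Every MMP2 library lay below every control library at that day. The log2 fold changes were −0.97 ± 0.23 in MMP2sh1 (adjusted p = 0.0034) and −0.95 ± 0.23 in MMP2sh2 (adjusted p = 0.0045). The former call was lost in the fit of all 27 libraries (adjusted p up to 0.071), and the latter lost on leaving out control library 2 and in the fit of all 27 libraries (adjusted p up to 0.14). At day 0 control was at 2.53, 1.503 and 2.36 CPM, MMP2sh1 at 0.562, 1.16 and 0.713 and MMP2sh2 at 0.727, 1.48 and 0.794, again without overlap. The difference of −1.41 ± 0.33 in MMP2sh1 (adjusted p = 0.0024) held in every alternative, and that of −1.10 ± 0.33 in MMP2sh2 was lost on leaving out control library 1 or 3 or MMP2sh2 library 1 or 3 and in the fit of all 27 libraries (adjusted p up to 0.11). These are counts of 24 to 184 reads a library at days 0 and +2. At day −2 MMP2sh1 was at 0.108, 0.108 and 0.488 CPM and MMP2sh2 at 0.578, 0.142 and 0.283, with no call against control.

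COL12A1, the most abundant FACIT gene, which like COL14A1 binds type I fibres, went the opposite way with culture. In control it was at 414, 455 and 437 CPM at day −2, 288, 331 and 303 at day 0 and 210.2, 176 and 167 at day +2, each stage below the one before it without overlap. Its log2 fold change over the whole period was −1.24 ± 0.062 in control (edgeR adjusted p = 1.9e-15), −1.001 in MMP2sh1 and −1.14 in MMP2sh2. At day 0 the MMP2sh2 libraries, at 394, 379.8 and 375 CPM, were all above control (0.30 ± 0.045, adjusted p = 7.5e-06), and the call held in every alternative. MMP2sh1 at day 0 overlapped with control at 321, 350.1 and 345 CPM (0.14 ± 0.045), and the call was lost on leaving out control library 1 or 3 or MMP2sh1 library 2 or 3 and in the fit of all 27 libraries (adjusted p up to 0.25). At day −2 MMP2sh1 was below control, at 338, 408 and 373 CPM (−0.22 ± 0.061), a call lost on leaving out control library 2 or MMP2sh1 library 1 (adjusted p up to 0.11).

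COL16A1, a FACIT collagen of skin and cartilage, was lower in both MMP2 lines before confluence. At day −2 it was at 32.8, 35.2 and 31.1 CPM in control, 15.3, 23.8 and 23.5 in MMP2sh1 and 25.9, 25.6 and 25.3 in MMP2sh2. All 6 MMP2 libraries lay below the control ones, and MMP2sh1 library 1 was the lowest. The log2 fold changes of −0.66 ± 0.11 in MMP2sh1 (edgeR adjusted p = 0.00026) and −0.37 ± 0.078 in MMP2sh2 (adjusted p = 0.003) held in every alternative, with a range of −0.77 to −0.49 in MMP2sh1. At days 0 and +2 the lines differed from control by 0.03 and 0.04 in MMP2sh1 and −0.13 and −0.16 in MMP2sh2, with no call. In control COL16A1 fell by 0.76 on the log2 scale from day −2 to day +2. The interaction was 0.70 ± 0.18 for MMP2sh1 (adjusted p = 0.012) and held in every alternative.

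The type IX genes encode the chains of a cartilage collagen that decorates type II fibres. COL9A2 rose through culture in control, from 12.9, 15.6 and 15.1 CPM at day −2 through 26.8, 26.6 and 31.0 at day 0 to 49.6, 45.2 and 50.4 at day +2 (1.75 ± 0.080 on the log2 scale). The 3 stages did not overlap. COL9A3 rose in control too, from 0.190, 0.166 and 0.292 to 0.653, 0.981 and 0.992 CPM (2.04 ± 0.53), with 6 to 54 reads a library, and 3.2% of its exon bases overlap with TCFL5. COL9A1 was at 0 in 23 of the 27 libraries, so only COL9A2 of the 3 chains was present at more than 1 CPM. COL9A2 was higher in MMP2sh1 than control at day +2, at 64.0, 51.6 and 53.9 CPM without overlap (0.22 ± 0.075), but the call was lost on leaving out control library 1, 2 or 3 or MMP2sh1 library 1, with DESeq2, with the replicate number as a block and in the fit of all 27 libraries (adjusted p up to 0.28). The remaining FACIT genes were low. COL20A1 rose in control from 0.554, 1.16 and 0.556 to 1.48, 2.26 and 1.57 CPM (1.23 ± 0.37), a call lost on leaving out control day +2 library 2 (adjusted p up to 0.053). COL21A1 was tested in 5 comparisons and not called in any of them. The change from day −2 to day +2 in MMP2sh1 was not among these 5. Without MMP2sh1 library 1 of day −2 COL21A1 was called there (3.38, edgeR adjusted p = 0.012), with at most 22 reads in a library. COL19A1 had at most 12 reads.

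Type VIII collagen forms the hexagonal lattice of the membrane behind the cornea and of vessel walls. COL8A1 was higher in MMP2sh1 than in control at each stage. At day −2 it was at 61.4, 61.9 and 56.8 CPM in control and 70.1, 76.5 and 76.7 in MMP2sh1, at day 0 at 37.2, 34.1 and 35.0 and 45.2, 52.0 and 54.0, and at day +2 at 69.1, 65.2 and 62.7 and 106, 98.7 and 90.2. No MMP2sh1 library overlapped with control at any day. The log2 fold changes were 0.31 ± 0.064, 0.50 ± 0.068 and 0.58 ± 0.065 (edgeR adjusted p = 0.0018, 1.3e-06 and 1.2e-07), and all 3 calls held in every alternative. In MMP2sh2 COL8A1 was at 39.9, 43.0 and 43.6 CPM at day 0 (0.24 ± 0.068), a call lost on leaving out control library 2 or 3 or MMP2sh2 library 2 or 3 (adjusted p up to 0.08), and differed by 0.03 and 0.00 at the other days with no call. In control it dipped at confluence, with −0.76 from day −2 to day 0 and 0.91 from day 0 to day +2. The partner chain COL8A2 was lower, with a mean of 1.47 CPM over the 27 libraries against 61.5 for COL8A1, and was not called relative to control in either MMP2 line. It rose with culture in control, from 1.19, 0.545 and 0.819 to 2.10, 2.28 and 2.10 CPM (1.33 ± 0.33), and in the other 2 lines by 1.05 and 1.75. The MMP2sh1 call was lost on leaving out MMP2sh1 day +2 library 1 (adjusted p up to 0.053).

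Of the transmembrane collagens, COL13A1 and COL17A1 were present. COL13A1, a collagen of cell adhesion sites known from the neuromuscular junction, was higher in both MMP2 lines at confluence. At day 0 it was at 10.0, 8.46 and 9.94 CPM in control, 14.2, 17.5 and 15.7 in MMP2sh1 and 17.2, 16.6 and 17.3 in MMP2sh2, with every MMP2 library above every control library. The log2 fold changes of 0.73 ± 0.11 and 0.83 ± 0.10 (edgeR adjusted p = 4.6e-06 and 3.1e-07) held in every alternative. At day +2 it was at 16.6, 23.0 and 20.6 CPM in control, 31.7, 26.6 and 23.0 in MMP2sh1 and 29.0, 25.1 and 23.5 in MMP2sh2. The differences were then 0.43 ± 0.11, a call lost on leaving out control library 1 (adjusted p up to 0.064), and 0.36 ± 0.098, a call lost on leaving out control library 1 or MMP2sh2 library 1 (adjusted p up to 0.19). At day −2 the libraries of the lines overlapped, at 13.7 ± 1.57, 13.0 ± 1.05 and 13.1 ± 1.17 CPM. The control changed by −0.52 from day −2 to day 0 and by 1.11 from day 0 to day +2, and its change over the whole period was 0.57.

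COL17A1, the hemidesmosome collagen of epithelia also known as BP180, fell through culture and was higher in MMP2sh1. In control it was at 7.04, 6.51 and 6.40 CPM at day −2, 2.99, 2.94 and 2.75 at day 0 and 1.67, 1.35 and 0.726 at day +2 (−2.42 ± 0.23 over the period, edgeR adjusted p = 6.6e-10). In MMP2sh1 it was at 9.39, 8.54 and 10.5, 5.70, 6.30 and 6.26 and 2.12, 1.97 and 2.20 CPM, above control without overlap at each day. The log2 fold change at day 0, 1.07 ± 0.17 (adjusted p = 1.3e-05), held in every alternative. That at day −2, 0.51 ± 0.13, was lost on leaving out control library 2 or MMP2sh1 library 3 and in the fit of all 27 libraries (adjusted p up to 0.067), and that at day +2, 0.75 ± 0.31, was not called (adjusted p = 0.11). MMP2sh2 differed by −0.11, 0.41 and 0.66 with no call. Beside COL17A1, the summed epithelial markers were apart at days −2 and +2 (values above). At day 0 they were at 432 to 477 CPM in control and 462 to 490 in MMP2sh1. Their part in the result was not tested. COL23A1 and COL25A1 had at most 11 and 10 reads in a library.

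The multiplexins went different ways. COL15A1 fell with culture in MMP2sh1, from 0.974, 1.03 and 2.05 CPM at day −2 to 0.388, 0.460 and 0.407 at day +2 (−1.69 ± 0.46), whereas control was at 0.986, 0.710 and 0.409 and 1.19, 1.03 and 1.06 CPM (0.62 ± 0.41, not called) and MMP2sh2 at 1.01, 0.264 and 0.312 and 0.532, 0.235 and 0.330 (−0.52 ± 0.62, not called). The interaction for MMP2sh1 was −2.30 ± 0.60 (edgeR adjusted p = 0.015), a call lost on leaving out MMP2sh1 day −2 library 3 (adjusted p up to 0.068). At day +2 both MMP2 lines were below control without overlap, with log2 fold changes of −1.38 ± 0.44 in MMP2sh1 and −1.57 ± 0.47 in MMP2sh2. The former call was lost on leaving out control library 1, 2 or 3 or MMP2sh1 library 1, 2 or 3 and with the replicate number as a block (adjusted p up to 0.092), and the latter lost on leaving out control library 1, 2 or 3 or MMP2sh2 library 2 or 3 (adjusted p up to 0.14). These libraries held 10 to 84 reads on the gene. COL18A1, whose terminal fragment is endostatin, rose by 0.32 ± 0.082 in control from day −2 to day +2. It was higher in MMP2sh2 than control at day −2, at 22.1, 26.8 and 26.7 against 18.9, 21.0 and 19.9 CPM (0.33 ± 0.091), a call lost on leaving out control library 1 or 3 or MMP2sh2 library 2 or 3 and in the fit of all 27 libraries (adjusted p up to 0.11). In all 18.5% of its exon bases overlap with SLC19A1, and since strand was not used such reads cannot be assigned to 1 of both genes.

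The remaining members were the anchoring fibril gene and the unclassed ones. COL7A1, the collagen that anchors the epidermis to the dermis, was at 6.83, 9.75 and 7.78 CPM at day −2, 14.0, 17.1 and 16.9 at day 0 and 14.8, 16.7 and 17.3 at day +2 in control. Its rise of 1.01 ± 0.12 on the log2 scale lay before confluence (0.99 from day −2 to day 0 and 0.05 after it). In MMP2sh1 at day 0 it was at 13.2, 13.5 and 12.3 CPM, below control (−0.30 ± 0.099), a call lost on leaving out control library 2 or 3 or MMP2sh1 library 1, 2 or 3, with DESeq2 and in the fit of all 27 libraries (adjusted p up to 0.34). COL26A1 fell in control from 5.42, 3.86 and 4.71 to 1.53, 2.60 and 1.62 CPM (−1.27 ± 0.23) and changed by −1.42 and −2.11 in MMP2sh1 and MMP2sh2, with no call between lines. COL28A1, known from peripheral nerve, was at 0.380, 0.172 and 0.0594 CPM in MMP2sh1 at day 0 against 0.671, 0.752 and 0.877 in control (−1.80 ± 0.57), a call lost on leaving out control library 1, 2 or 3 or MMP2sh1 library 2 or 3 and in the fit of all 27 libraries (adjusted p up to 0.12). It had 2 to 36 reads in these libraries. COL24A1 stayed at 4 to 51 reads a library and was not called in any comparison.

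The 2 MMP2 lines were also compared with each other, a comparison in which the control takes no part. At day +2, 4 of 27 tested members differed (all genes 7.86%), all of them higher in MMP2sh1: COL22A1 by 0.85 ± 0.074, COL8A1 by 0.58 ± 0.067, COL6A3 by 0.41 ± 0.046 and COL4A1 by 0.41 ± 0.065 (edgeR adjusted p = 2.7e-08, 2.6e-06, 1.2e-06 and 0.00014). The libraries did not overlap for any of these 4 genes. This is read from the same values as the test, and the share without overlap was not counted over all genes. The 4 calls held in every alternative. COL13A1 and COL14A1, which differed from control in both lines, differed between the lines at day +2 by 0.06 ± 0.10 and −0.02 ± 0.27 and were not called. At day −2, 9 of 24 were called (all genes 10.7%), with COL17A1 (0.62), COL8A1 (0.27) and COL6A3 (0.23) higher in MMP2sh1. COL4A4 (−0.44), COL18A1 (−0.34), COL6A2 (−0.32), COL4A2 (−0.28), COL6A1 (−0.28) and COL4A1 (−0.24) were lower. Without MMP2sh1 library 1 there were 5 calls in place of 9. Of these 9 calls those of COL4A4 and COL6A2 held in every alternative. The COL17A1 call was lost on leaving out MMP2sh2 library 2 (adjusted p up to 0.053), that of COL8A1 lost on leaving out MMP2sh1 library 2 (adjusted p up to 0.067) and that of COL6A3 lost on leaving out MMP2sh1 library 2 or 3 or MMP2sh2 library 1, 2 or 3 (adjusted p up to 0.22). COL18A1 was lost on leaving out MMP2sh1 library 1 or MMP2sh2 library 2 or 3 (adjusted p up to 0.22) and COL4A1 lost on leaving out MMP2sh1 library 1 or MMP2sh2 library 1 or 2 (adjusted p up to 0.15). For COL4A2 the call was lost on leaving out MMP2sh1 library 1 or MMP2sh2 library 2 or 3 and with DESeq2 (adjusted p up to 0.18), and for COL6A1 lost on leaving out MMP2sh1 library 1 or MMP2sh2 library 3 (adjusted p up to 0.097). At day 0, 8 of 26 were called (all genes 18.5%), from COL17A1 at 0.66 to COL4A4 at −0.31. The COL17A1 call at that day was lost on leaving out MMP2sh2 library 1 (adjusted p up to 0.055), and the COL4A4 call lost on leaving out MMP2sh1 library 1 or 3 or MMP2sh2 library 1, 2 or 3, with DESeq2 and in the fit of all 27 libraries (adjusted p up to 0.18). MMP2 itself was lower in MMP2sh1 than in MMP2sh2, with log2 fold changes of −1.84, −1.41 and −1.52 at days −2, 0 and +2.

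Genes that make, hold and receive these collagens were looked at as companions. Their values come from the edgeR test on all libraries of a comparison, with MMP2sh1 library 1 of day −2 included. Their alternatives are not given. Of the 10 fibrillar collagens set aside by the rule, MMP2sh1 had 2 called of 8 tested at day −2 (all genes 11.6%), 3 of 9 at day 0 (all genes 16.8%) and 3 of 9 at day +2 (all genes 14.8%). MMP2sh2 had 3 of 9 (all genes 11.0%), 4 of 9 (all genes 12.9%) and 3 of 9 (all genes 6.32%) at these days. COL3A1, the type III chain, was lower than control in both lines at every day (−1.79, −1.66 and −1.17 in MMP2sh1 and −0.40, −0.82 and −0.81 in MMP2sh2). COL1A1, the main chain of bone, was higher in MMP2sh1 at day +2 by 0.26. Of the 19 genes of chain processing and export, 8 were higher and 3 lower in MMP2sh1 at day +2, where 14.8% of all genes were called in either direction. In MMP2sh2 0 were higher and 3 lower, where 6.32% of all genes were called. At the other days the lines had like counts. At day −2 there were 4 higher and 1 lower in MMP2sh1 (all genes 11.6%) and 4 and 2 in MMP2sh2 (11.0%). At day 0 there were 1 higher and 3 lower in each line (16.8% and 12.9%). The difference between the lines was not tested for the list. LEPREL1, the prolyl hydroxylase that acts on type IV chains, was lower at day +2 in both, at −0.94 ± 0.079 and −0.61 ± 0.077 (edgeR adjusted p = 4.3e-10 and 2.4e-07), and P4HA1, a catalytic subunit of another collagen prolyl hydroxylase, was at −0.40 and −0.59. PLOD2, a lysyl hydroxylase, was lower in MMP2sh1 at each day (−0.41, −0.33 and −0.30). CREB3L1, a transcription factor of the secretory pathway in bone cells, was higher there at each day (0.46, 0.35 and 0.39) and changed by −2.41 with culture in control.

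The partners of type IV collagen in the basement membrane changed in both directions. Of 16 such genes, MMP2sh1 had 2 higher and 4 lower at day −2 (all genes called 11.6%), 1 and 5 at day 0 (16.8%), and 6 and 3 at day +2 (14.8%). PXDN, which crosslinks the type IV network, was lower in MMP2sh1, with log2 fold changes of −0.55 ± 0.072 at day −2 and −0.64 ± 0.046 at day 0 (edgeR adjusted p = 8e-06 and 2.6e-12). NID1, which links laminin to type IV collagen, was lower at all 3 days (−0.38, −0.41 and −0.31), and the laminin chain LAMA4 at all 3 days (−0.49, −1.13 and −0.39). In MMP2sh2 the list had 3 higher and 2 lower of 15 tested at day −2 (all genes 11.0%), 5 and 5 of 16 at day 0 (12.9%), and 5 and 1 at day +2 (6.32%), when LAMB3 was higher by 0.50.

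Of 10 collagen receptor genes, MMP2sh1 had 1 higher and 3 lower at day −2 (all genes called 11.6%), 1 higher and 7 lower at day 0 (all genes called 16.8%) and 3 higher and 0 lower at day +2 (14.8%). MMP2sh2 had 2 and 1 at day −2 (11.0%), 1 and 3 at day 0 (12.9%) and 1 and 3 at day +2 (6.32%). ITGA2, an integrin chain that binds collagen, was higher in MMP2sh1 at each day (0.42, 0.53 and 0.59), and ITGB1, its partner chain, was lower at days −2 and 0 (−0.41 and −0.36). DDR2, a receptor kinase for collagens, differed from control in MMP2sh1 by −0.30 ± 0.069 at day −2 and by 0.45 ± 0.072 at day +2. Its interaction term is not given here. CSPG4, a proteoglycan that binds type VI collagen, changed by −2.11 in control with culture, while ITGA2 changed by 2.56. Over the period 8 of 10 receptor genes were higher and 1 lower in control, where 28.1% of all genes were higher and 28.6% lower. Chain processing genes had 8 higher and 6 lower of 19 over the same period, read against the same 28.1% and 28.6% of all genes.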

How the data were processed

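PolyA RNA of U2OS cells was sequenced in 27 libraries. Per the labels and the study's methods, the authors deposited raw read counts per gene, made with HTSeq 2.0.0 (exons, union mode, without strand) from alignments by STAR 2.7.3a to hg19 after trimming in Trim Galore 0.6.0. The 5 summary lines of each count file, 16.8% to 19.1% of its total, were left out. Groups came from the labels. The 3 libraries of a group were described as independent biological replicates.

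CPM were computed with TMM factors over all 27 libraries, and summed marker CPM without them. Each pairwise comparison used edgeR 4.0.16 (R 4.3.3), the quasi-likelihood test on its own 6 libraries, after a filter on low counts (filterByExpr, minimum count 10, minimum total 15), with Benjamini-Hochberg adjustment over all genes tested and a threshold of 0.05. Interactions were fitted over the 12 libraries of 2 lines at days −2 and +2. SE is the size of the log2 fold change divided by the square root of F. The test was checked on simulated counts with 200 genes changed 2-fold. It called 178 of them and 18 other genes of 18840 tested for MMP2sh1 against control at day +2, and 157 and 4 other genes of 19935 for its interaction. The changed genes all had a mean above 1 CPM, and no library was made to stand apart. The check therefore does not cover members with fewer reads or with smaller changes. Lengths are those of canonical transcripts of GENCODE v44lift37, in which all 34 members were found. Alternatives were DESeq2 1.42.0, median-of-ratios scaling, no filter, at least 10 counts in every library, a replicate block, all 27 libraries in 1 fit, and leaving out each library.

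Members called in 1 or more comparisons of a hairpin line with control, called in control from day −2 to day +2, or called in an interaction are named, as are partner chains and up to 4 companion genes a list and comparison, by adjusted p. The members and lists were chosen with earlier results of these data known. A few items are not reported here.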

Additional observations from a re-analysis of the deposited data

Results flagged for a closer look

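The change from day −2 to day +2 differed between an MMP2 line and control for 8 member and line combinations, each by the interaction term of the edgeR test over 12 libraries. In MMP2sh1 it was more upward, or less downward, than in control for COL22A1 by 1.498 ± 0.13 on the log2 scale (SE, adjusted p = 3e-09), for COL16A1 by 0.70 ± 0.18 (adjusted p = 0.012) and for COL4A1 by 0.43 ± 0.099 (adjusted p = 0.0059), and these 3 calls held in every alternative. COL16A1 stood out through the low MMP2sh1 libraries at day −2, and COL4A1 through the high ones at day +2. COL6A1 (0.31 ± 0.094, adjusted p = 0.039) and COL6A3 (0.33 ± 0.094, adjusted p = 0.028) were less firm. The COL6A1 call was lost on leaving out control day −2 library 1, 2 or 3 or control day +2 library 2 or 3 or MMP2sh1 day −2 library 1 or MMP2sh1 day +2 library 1 or 2 and with the replicate number as a block (adjusted p up to 0.11), and the COL6A3 call lost on leaving out control day −2 library 2 or 3 or control day +2 library 2 or 3 or MMP2sh1 day −2 library 1 or MMP2sh1 day +2 library 2 (adjusted p up to 0.1).

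For COL15A1 in MMP2sh1 the interaction went the other way, at −2.30 ± 0.60 (adjusted p = 0.015), a call lost on leaving out MMP2sh1 day −2 library 3 (adjusted p up to 0.068). In MMP2sh2 the interaction was 0.63 ± 0.13 for COL22A1 (adjusted p = 0.0019), which held in every alternative, and −0.52 ± 0.16 for COL18A1 (adjusted p = 0.0495), which sat at the threshold. The COL18A1 call was lost on leaving out control day −2 library 1, 2 or 3 or control day +2 library 1, 2 or 3 or MMP2sh2 day −2 library 2 or 3 or MMP2sh2 day +2 library 2 or 3 and in the fit of all 27 libraries (adjusted p up to 0.17).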

How the results depend on the processing

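Of 165 member calls 109 were kept in all of their alternatives, 56 were lost in 1 or more, and none changed direction over 2018 alternatives. Depth limits the members with few reads, as the SE of 0.57 for COL28A1 in MMP2sh1 at day 0 shows beside 0.045 for COL12A1.

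On leaving out 1 library at a time, the number of members called in MMP2sh1 against control ranged from 3 to 6 at day −2, from 4 to 8 at day 0 and from 7 to 9 at day +2, and in MMP2sh2 from 4 to 6, from 5 to 6 and from 1 to 6. It ranged from 20 to 22 for day +2 against day −2 in control, from 18 to 22 in MMP2sh1 and from 17 to 19 in MMP2sh2, from 11 to 16 for control day 0 against day −2 and from 17 to 18 for day +2 against day 0. Between the MMP2 lines it ranged from 4 to 9 at day −2, from 6 to 7 at day 0 and from 4 to 6 at day +2, and for the interactions from 4 to 9 in MMP2sh1 and from 1 to 2 in MMP2sh2. The largest moves were 3 without control library 2 (MMP2sh1, day −2), 4 without MMP2sh1 library 1 or 3 (same day), 5 without control library 1 and 4 and 5 without MMP2sh1 library 2 and 3 (day 0), 4 without control library 1 or 3 or MMP2sh2 library 2 or 3 (MMP2sh2, day −2), 3, 1 and 2 without control library 1, 2 and 3 and 2 without MMP2sh2 library 1 or 2 (MMP2sh2, day +2), and between the MMP2 lines at day −2 5 without MMP2sh1 library 1 and 4 without MMP2sh2 library 2.

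With all 27 libraries in 1 fit, 4 members were called in MMP2sh1 at day 0, 4 in MMP2sh2 at day 0, 3 in MMP2sh2 at day +2, 4 between the MMP2 lines at day 0 and 1 in the MMP2sh2 interaction. Without a filter on low counts 7 were called between the MMP2 lines at day +2. The cause was not tested.

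Libraries of the same replicate number did not deviate together (correlation −0.0248 to 0.0364 over 42 pairs, 17 of them best with their own number), so the numbers do not pair the samples. A replicate block gave 8 calls between the MMP2 lines at day +2 against 4, kept the other counts within 1.5 times, and lost 3 of the 165 calls, those of COL15A1 and COL9A2 in MMP2sh1 at day +2 and of COL6A1 in the MMP2sh1 interaction.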
